A study of Mus musculus with 2 samples.

Results

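Solute carriers are membrane proteins that move sugars, amino acids, ions, metals, vitamins and metabolites across the plasma membrane and the membranes of organelles. The mouse preimplantation embryo uses them to take up glucose, lactate and amino acids from its medium, to load mitochondria, and to move ions across the trophectoderm, the outer epithelium whose transport of salt and water fills the blastocyst cavity. The genes described here are the protein-coding genes of the mouse annotation GENCODE M21 whose symbol is Slc followed by a number and that had a total of 50 or more UMIs (unique molecular identifiers, 1 for each captured transcript) over 24 embryos, with 1 gene left out by the rule. They number 164 of 371 genes with such a symbol. Of the rest, 57 had 0 UMIs and 149 had between 1 and 49. Just inside the threshold lay Slc7a8, Slc19a1 and Slc28a1 with 50 UMIs each, and just outside it Slc41a1 with 48. Because members were chosen by their total UMI count, that count is a description of them and not a result.

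The embryos were 24 mouse pseudoblastocysts, which are cavitated embryos whose inner cell mass was not scored, so that trophoblastic vesicles may be among them. All came from B6D2F1 oocytes fertilized in vitro with ICR sperm, were freed of the zona pellucida and were cultured in HTF medium with BSA to the same time after insemination. Groups of 6 embryos each developed from a whole zygote (1C) or from a single blastomere of a 2-cell (2CB), 4-cell (4CB) or 8-cell (8CB) embryo, and the sex of the embryos is not given in the sources used here. RNA of each embryo was barcoded by the CEL-Seq2 protocol, which counts the 3′ ends of transcripts, in 2 library pools, 1C with 8CB and 2CB with 4CB, so that the comparison of 2CB and 4CB with 1C and 8CB cannot be told apart from a difference between pools.

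Total UMIs ranged from 70941 to 1507471 per embryo, and 69.3% of all UMIs and 71.2% of the members' UMIs came from 2CB and 4CB. Alone, the 12 embryos of 2CB and 4CB would have put 148 of the members past 50 UMIs, and the 12 embryos of 1C and 8CB would have put 81 past it. The members held 1.04% ± 0.0785 of an embryo's UMIs for 1C, 1.17% ± 0.114 for 2CB, 1.17% ± 0.116 for 4CB and 1.10% ± 0.112 for 8CB (SD, n = 6 each). Of 9 trophectoderm markers, 8 were higher and 1 (Tfap2c) was lower in 2CB and 4CB, and their summed level ran from 699 to 1530 CPM (UMIs of a gene per 1000000 counted in that embryo) in 1C and 8CB and from 3020 to 5900 CPM in 2CB and 4CB. None of the 9 was at 0 in all 24 embryos, although Elf5 had 0 UMIs in all 1C embryos. Of 8 markers of cumulus and granulosa cells 6 had 0 UMIs in all embryos (Amh, Foxl2, Has2, Ptx3, Cyp19a1 and Fshr), as did Hbb-bs, Hbb-bt and Hba-a1 among 4 markers of red blood cells. Of 8 primitive endoderm markers 5 were tested, 4 higher and 1 lower, and of 7 epiblast markers 4 were tested, 2 higher and 2 lower, while none of the 6 oocyte markers was tested. Over all tested genes 31.3% were higher and 24% lower. The oocyte markers summed to between 9.11 and 103 CPM in 1C and 8CB (stage medians 52.3 and 40.2) and to between 0 and 21.0 CPM in 2CB and 4CB (6.87 and 7.16), and their part in the differences was not tested. In whole embryos, fewer cells of a type and less RNA per cell cannot be told apart, and the part of the trophectoderm markers in the differences below was not tested.

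The levels of the members were very unequal. The 10 highest held 39.2% of the members' UMIs, as the mean over embryos, and 27 members had 1000 UMIs or more. The highest was Slc25a39, a mitochondrial carrier needed for glutathione import, with 8341 UMIs. By substrate, the 2 largest classes were the 30 mitochondrial carriers and the 28 carriers of amino acids and peptides. The former took between 24.8% (2CB) and 27.6% (4CB) of the members' UMIs as stage means, and the latter between 27.1% (4CB) and 31.4% (1C).

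To compare the embryo groups, edgeR's quasi-likelihood test was run on the UMI counts of all 24 embryos. It was limited to 5940 genes that passed a filter on low counts, and called a gene at a Benjamini-Hochberg adjusted p below 0.1. Of the 164 members, 93 passed the filter. Of these, 44 (47.3%) were higher in 2CB and 4CB than in 1C and 8CB, where 31.3% of all tested genes were higher. Lower in 2CB and 4CB were 21 members (22.6%), where 24% of all tested genes were lower. The median log2 fold change (log2 of the level in 2CB and 4CB over that in 1C and 8CB) was 0.55 over the tested members and 0.12 over all tested genes. In the test among all 4 stages, 54 members (58.1%) were called, beside 47.1% of all tested genes.

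The filter itself bears on these counts. It asked for at least 30.2 CPM in 6 embryos, and 28 members met it in 2CB and 4CB alone, of which 25 were called higher and 0 lower. In 1C and 8CB alone 8 members met it, with 3 called lower and 0 higher. The 50 members that met it in both pools divided into 17 higher, 18 lower and 15 not called. The remaining 7 met it only with the pools combined, with 2 higher, 0 lower and 5 not called. With no filter, all 164 members could be tested, and 69 (42.1%) were higher and 25 (15.2%) lower, beside 14.2% and 9.61% of the 23171 genes with at least 1 UMI. Nothing is read from that excess, because members needed 50 UMIs, mostly from 2CB and 4CB, and the other genes as few as 1. Of the 71 members that had not passed the filter, 28 were then higher and 4 lower. When every embryo was thinned to 70941 UMIs, 31 members were tested, 9 higher and 11 lower, so that 45.0% of the called members were higher, against 67.7% at full depth. Over all genes the share of calls that were higher also fell, from 56.7% at full depth to 50.3% after thinning. On the genes that had passed at full depth, thinned counts gave 35 higher and 18 lower.

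**Figure D1:**
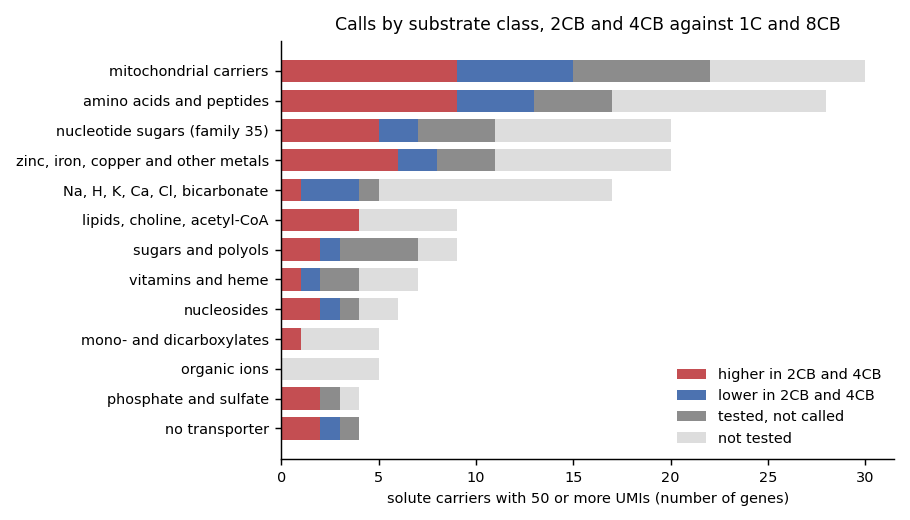
Number of solute carriers (x axis) in each of 13 substrate classes (y axis), divided into members higher in 2CB and 4CB, lower in 2CB and 4CB, tested and not called, and not tested. Carriers of lipids, choline and acetyl-CoA had 4 higher and 0 lower, and ion carriers had 1 higher and 3 lower, or 4 and 4 with no filter. Of all tested genes 31.3% were higher and 24% lower. Among the lipid carriers, Slc44a4, Slc44a2 and Slc27a4 met the filter in 2CB and 4CB alone.

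**Figure D2:**
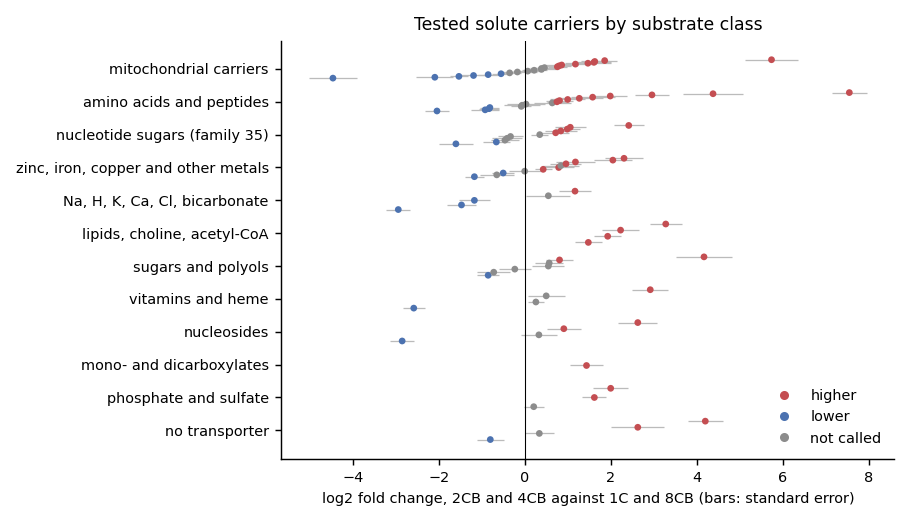
Log2 fold change across the pools, 2CB and 4CB over 1C and 8CB (x axis, with standard errors) for the 93 tested members by substrate class, coloured by call. Values ran from -4.46 (Slc25a41) to 7.55 (Slc15a2), and most classes held members on both sides of 0.

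The members that differed most between the groups of stages are shown with the sequence before their transcription start. Windows of 250 bases before a RefSeq start (GRCm38.p6) were at hand for 126 of the 164 members. Shown are 2 members each way, taken in order of their difference, that had a mean of at least 20 CPM and a window within 50 bases of the annotated start. Slc25a41 and Slc5a6, which were lower in 2CB and 4CB, had no such window. Slc12a2 (log2 fold change -2.94) differed more than either lower member shown, but its sequence is not printed here. Capitals mark matches, on either strand, to a GC box (GGGCGG), the core bound by TEAD factors (GGAATG), an AP-2 site (GCCNNNGGC) and a GATA site (AGATAA). No matches overlapped each other in the 4 windows. The first 2 belong to members higher in 2CB and 4CB, Slc15a2 (chr16:36784963-36785212, minus strand) and Slc25a1 (chr16:17928220-17928469, minus strand), and the last 2 to members lower there, Slc29a3 (chr10:60752783-60753032, minus strand) and Slc25a22 (chr7:141437875-141438124, minus strand). By the GENCODE annotation, the last 12 bases of the Slc29a3 window and the last 18 of the Slc25a22 window lie inside the gene. The GC box of Slc25a22 is among them.
Slc15a2: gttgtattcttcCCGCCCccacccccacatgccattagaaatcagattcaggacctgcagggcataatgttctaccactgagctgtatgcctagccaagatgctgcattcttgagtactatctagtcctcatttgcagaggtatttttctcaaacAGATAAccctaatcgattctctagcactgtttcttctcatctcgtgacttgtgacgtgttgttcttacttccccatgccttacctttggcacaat
Slc25a1: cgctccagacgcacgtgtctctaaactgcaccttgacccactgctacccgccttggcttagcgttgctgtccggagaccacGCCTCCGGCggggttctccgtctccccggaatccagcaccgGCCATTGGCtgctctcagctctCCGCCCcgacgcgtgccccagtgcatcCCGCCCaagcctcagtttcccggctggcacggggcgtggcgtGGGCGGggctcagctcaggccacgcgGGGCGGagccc
Slc29a3: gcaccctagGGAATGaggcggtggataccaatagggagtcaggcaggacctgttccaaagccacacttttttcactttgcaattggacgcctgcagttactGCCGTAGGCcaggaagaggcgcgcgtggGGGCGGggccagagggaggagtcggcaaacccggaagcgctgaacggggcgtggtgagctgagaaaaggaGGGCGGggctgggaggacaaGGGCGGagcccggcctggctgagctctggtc
Slc25a22: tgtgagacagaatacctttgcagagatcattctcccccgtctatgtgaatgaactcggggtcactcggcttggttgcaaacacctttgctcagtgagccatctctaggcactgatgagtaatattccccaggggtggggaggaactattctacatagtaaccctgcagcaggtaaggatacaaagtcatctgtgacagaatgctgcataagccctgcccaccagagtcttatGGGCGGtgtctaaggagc

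The GC box stood in 44.5% of the windows of 16521 protein-coding genes and in 87 of the 126 windows of members (69%). It stood in 27 of the 36 windows (75%) of members higher in 2CB and 4CB and in 11 of the 14 windows (78.6%) of members lower there. TEAD matched 8.33% of the windows of higher members, 21.4% of those of lower members and 16.7% of those of all members, beside 11.3% over all genes. AP-2 matched 11.1%, 21.4% and 14.3%, beside 16.5%, and GATA matched 8.33%, 0% and 3.17%, beside 8.87%. Windows were at hand for only 126 of 164 members and 14 of the 21 lower ones, too few for a comparison of these shares. These matches describe letters in the windows and nothing was measured on binding.

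Carriers of amino acids, peptides and related compounds gave 17 tested members of 28, of which 9 were higher and 4 lower in 2CB and 4CB. Without a filter 16 of the 28 were higher and 4 lower. For this and the following classes, the shares over all tested genes are 31.3% higher and 24% lower, or 14.2% and 9.61% with no filter. Counts with no filter also depend on the threshold of 50 UMIs, and differences between classes were not tested. The summed level of the class was 3270 ± 530 CPM for 1C, 3330 ± 401 for 2CB, 3180 ± 748 for 4CB and 3420 ± 683 for 8CB (SD, n = 6 each). These means lay within 1 SD of each other, but Slc43a3 weighs on them. Without it, a sum taken after its values were seen, they were 2371 ± 284 CPM for 1C, 3154 ± 396 for 2CB, 2922 ± 692 for 4CB and 2584 ± 669 for 8CB, and 1C and 2CB lay more than 1 SD apart.

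Slc15a2 (chromosome 16, 36750177 to 36784962), the high-affinity transporter of di- and tripeptides in the plasma membrane, showed the largest difference of all members. It ran from 0 to 2.92 CPM in 1C with a median of 1.36 and from 0 to 3.04 in 8CB with a median of 0, but from 131 to 391 in 2CB with a median of 316 and from 132 to 505 in 4CB with a median of 267. Only 4 of the 12 embryos of 1C and 8CB had a UMI of it, and the lowest 2CB or 4CB embryo lay far above the highest of the other stages. The log2 fold change was 7.55 (standard error, SE, 0.40, adjusted p = 1.19e-14). Slc15a4, its lysosomal relative that exports histidine and peptides, went the other way, with a median of 85.9 CPM in 1C and 8CB and 37.4 in 2CB and 4CB (log2 fold change -0.92, SE 0.32, adjusted p = 0.020). It overlaps Glt1d1 on the opposite strand, which had 83 UMIs.

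Slc3a2, the heavy chain that several amino acid carriers need, was lower, from a median of 490 CPM in 1C and 8CB (range 194 to 1130) to 303 in 2CB and 4CB (147 to 613), by a log2 fold change of -0.83 (SE 0.24, adjusted p = 0.00481). Slc7a5, the light chain of the large neutral amino acid transporter LAT1, was not called, and its values were spread from 15.9 to 310 CPM over the embryos of the pools, with a log2 fold change of 0.03 (SE 0.45) whose sign changed with the setting. Slc7a6, the light chain that exchanges cationic for neutral amino acids, was higher, at a median of 80.6 CPM against 34.4 (log2 fold change 0.81, SE 0.31, adjusted p = 0.0294), a call lost after thinning on the genes that passed at full depth. Differences between the light chains were not tested. Slc7a8, a further light chain, was at 0 in all 12 embryos of 1C and 8CB and present in 4 of 6 2CB and 5 of 6 4CB embryos, at up to 44.7 CPM. Taken over the pooled embryos it was at least 7.36-fold higher in 2CB and 4CB, against a floor of 3 counts over the 1C and 8CB embryos, and it did not pass the filter. All its 50 UMIs came from 2CB and 4CB, so this bound is set by the threshold for members and is not a result.

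Slc38a2, the carrier that cells induce when amino acids run short, ran from 0 to 8.09 CPM in 1C with a median of 0, 0 to 8.53 in 8CB with a median of 1.40, 5.08 to 65.2 in 2CB with a median of 17.5 and 7.96 to 93.7 in 4CB with a median of 46.8. The lower 2CB and 4CB embryos overlapped the higher ones of the other stages, and the log2 fold change was 4.38 (SE 0.69, adjusted p = 5.96e-06). Slc1a5, the glutamine exchanger ASCT2, had a median of 8.27 CPM in 1C and 8CB and 21.2 in 2CB and 4CB (log2 fold change 1.27, SE 0.54, adjusted p = 0.0545). That call was lost without 2CB replicate 3, without 2CB replicate 4 and after thinning on the genes that passed at full depth. Slc38a1 and Slc6a14, a glutamine carrier and a broad carrier of neutral and cationic amino acids, did not pass the filter. Their medians were 4.55 and 1.36 CPM in 1C and 8CB and 25.8 and 21.0 CPM in 2CB and 4CB, and without a filter both were called higher, with log2 fold changes of 1.76 and 2.78 (adjusted p = 0.00296 and 2.65e-05). Both met the threshold of 50 UMIs only through 2CB and 4CB, so nothing is read from these unfiltered calls. Slc6a13, a carrier of GABA and taurine, ran from 0 to 56.1 CPM in 1C and 8CB (median 8.70) and from 45.8 to 159 in 2CB and 4CB (median 85.4), for a log2 fold change of 2.96 (SE 0.40, adjusted p = 6.76e-07). Slc6a9, the glycine carrier long studied in cleavage embryos, had 0 UMIs.

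Among the most abundant carriers of the class, calls went both ways. Slc6a8, the creatine carrier and the highest of the class at a mean of 556 CPM, was higher by a log2 fold change of 0.75 (SE 0.22, adjusted p = 0.00656), with 213 to 708 CPM in 1C and 8CB and 268 to 1170 in 2CB and 4CB. Slc43a3, placed here by its family although it is known as a purine nucleobase carrier, ran from 367 to 1350 CPM in 1C with a median of 968 and from 507 to 1640 in 8CB with a median of 670, but from 44.9 to 253 in 2CB with a median of 187 and from 44.7 to 514 in 4CB with a median of 278. Its log2 fold change was -2.04 (SE 0.29, adjusted p = 1.38e-06), and the highest 4CB embryo lay above the lowest 1C and 8CB embryos. Slc1a1, a carrier of glutamate, aspartate and cysteine, was lower with medians of 554 against 349 CPM (log2 fold change -0.81, SE 0.22, adjusted p = 0.00329). Slc6a6, the taurine carrier, was not called at a log2 fold change of -0.08 (SE 0.23), with medians of 418 and 383 CPM.

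Among 9 carriers of sugars and polyols, 7 were tested, with 2 higher, 1 lower and 4 not called. Of the 3 glucose carriers studied most in mouse embryos, 1 was higher, 1 lower and 1 not called, and differences between the carriers were not tested. Slc2a3, or GLUT3, which takes up glucose at the outer face of the trophectoderm, ran from 42.3 to 498 CPM in 1C and 8CB (median 142) and from 97.9 to 670 in 2CB and 4CB (median 352), higher by a log2 fold change of 0.81 (SE 0.32, adjusted p = 0.0405). Slc2a1, or GLUT1, had medians of 22.9 and 40.2 CPM and was not called (log2 fold change 0.55, SE 0.37, adjusted p = 0.225). Slc2a8, or GLUT8, an intracellular sugar carrier, was lower, with medians of 127 against 75.2 CPM (log2 fold change -0.85, SE 0.25, adjusted p = 0.00683). That call was lost in both analyses of thinned counts. Slc37a2, an exchanger of glucose 6-phosphate for phosphate, was seen in 2 of 12 embryos of 1C and 8CB and in all 12 of 2CB and 4CB, where its median was 34.0 CPM (log2 fold change 4.17, SE 0.64, adjusted p = 4.25e-06). It overlaps Gm10177 on the opposite strand, which had 333 UMIs.

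Of 5 carriers of mono- and dicarboxylates, only Slc16a1 was tested, the lactate and pyruvate carrier MCT1. It ran from 0 to 185 CPM in 1C and 8CB (median 38.3) and from 43.2 to 227 in 2CB and 4CB (median 129), for a log2 fold change of 1.43 (SE 0.38, adjusted p = 0.00266). Predicted genes overlap it on the same strand, of which Gm43581 had 89 UMIs. With no filter 2 of the 5 were higher and 1 lower. These were, beside Slc16a1, Slc13a5, a citrate carrier (log2 fold change 4.04, adjusted p = 0.000349), and Slc16a6, which was lower (-2.49, adjusted p = 2.48e-05). Slc13a5 had 67 of its 68 UMIs in 2CB and 4CB, and Slc16a6 had 82 of its 109 in 1C and 8CB. Each met the threshold of 50 UMIs through 1 pool alone, so nothing is read from these 2 calls. Slc16a6, with 109 UMIs, overlaps Amz2 on the opposite strand, which had 107 UMIs. Slc16a7, the carrier MCT2, had 2 UMIs in 1 embryo.

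The mitochondrial carrier family, which shuttles metabolites across the inner membrane, gave 22 tested members of 30, of which 9 were higher, 6 lower and 7 not called, and the summed level was 2640 ± 201 CPM for 1C, 2890 ± 438 for 2CB, 3190 ± 644 for 4CB and 2860 ± 704 for 8CB (SD, n = 6 each). Slc25a1 (chromosome 16, 17925223 to 17928219), the carrier that exports citrate for lipid synthesis, was at 0 in all 6 1C embryos and ran from 0 to 19.6 CPM in 8CB with a median of 1.52, from 40.2 to 119 in 2CB with a median of 72.1 and from 15.1 to 165 in 4CB with a median of 67.4. The log2 fold change was 5.74 (SE 0.62, adjusted p = 5.57e-08), and 1 stage pair overlapped, the highest 8CB embryo lying above the lowest 4CB embryo. At the other end, Slc25a41 (chromosome 17, 57032773 to 57041654), an exchanger of ATP-Mg for phosphate, ran from 40.5 to 80.2 CPM in 1C with a median of 51.2 and from 5.61 to 70.5 in 8CB with a median of 34.9, but from 0 to 5.21 in 2CB with a median of 0.663 and from 0 to 13.2 in 4CB with a median of 0.442. Its log2 fold change was -4.46 (SE 0.55, adjusted p = 1.15e-07). Slc25a23, a relative that lies 2057 bases from it on the same strand, was not called, at medians of 17.9 and 26.1 CPM.

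The adenine nucleotide carriers, which exchange ADP for ATP, were both well measured. Slc25a5 had a median of 42.1 CPM in 1C and 8CB and 203 in 2CB and 4CB (log2 fold change 1.86, SE 0.29, adjusted p = 4.86e-06). Slc25a4 was not called, with medians of 197 and 327 CPM (log2 fold change 0.46, SE 0.24, adjusted p = 0.115). Also higher were Slc25a3, the phosphate carrier (0.76), Slc25a13, an aspartate and glutamate exchanger (1.63), and Slc25a10, a dicarboxylate carrier (0.80), all as log2 fold changes, of which the call of Slc25a10 was lost after thinning on the genes that passed at full depth. Among the members that were lower, Slc25a44, a carrier of branched-chain amino acids, ran from 204 to 566 CPM in 1C with a median of 406, from 230 to 580 in 8CB with a median of 399, from 100 to 195 in 2CB with a median of 138 and from 79.7 to 179 in 4CB with a median of 164. No embryo overlapped between the pairs of stages, and the log2 fold change was -1.53 (SE 0.20, adjusted p = 2.48e-07). Slc25a22, a glutamate carrier, and Slc25a20, which brings acylcarnitines in for fatty acid oxidation, were lower by log2 fold changes of -2.09 and -0.85 (SE 0.43 and 0.23, adjusted p = 0.000181 and 0.00296). Slc25a39 ran from 154 to 1600 CPM in 1C and 8CB and from 336 to 1390 in 2CB and 4CB and was not called (log2 fold change 0.39, SE 0.27).

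All 4 tested carriers of lipids, choline and acetyl-CoA, of 9 members, were higher, and with no filter 6 of 9 were higher and 0 lower. Of the 4, Slc44a4, Slc44a2 and Slc27a4 met the filter in 2CB and 4CB alone. Of the 28 members that did so, 25 were higher and 0 lower, so the absence of lower calls is not read as a trait of the class. The summed level of the 9 was 138 ± 45.3 CPM for 1C and 134 ± 31.0 for 8CB, beside 567 ± 106 for 2CB and 588 ± 102 for 4CB (SD, n = 6 each). The lowest embryo of 2CB and 4CB, at 460 CPM, lay above the highest of 1C and 8CB, at 179 CPM. Slc44a4 (chromosome 17, 34914466 to 34930436), a choline carrier that also takes up thiamine pyrophosphate, ran from 5.43 to 54.9 CPM in 1C with a median of 9.88, 0 to 59.7 in 8CB with a median of 24.5, 149 to 229 in 2CB with a median of 178 and 133 to 283 in 4CB with a median of 185, with no overlap between the pools (log2 fold change 3.28, SE 0.37, adjusted p = 2.36e-08). The other choline carriers Slc44a1 and Slc44a2 were higher by 1.93 and 2.23, and Slc27a4, which activates and takes up long-chain fatty acids, by 1.48, as log2 fold changes (SE 0.31, 0.43 and 0.31). Slc51b, a subunit of the basolateral bile acid and steroid carrier, was at 0 in all 12 embryos of 1C and 8CB and had 61 UMIs in 2CB and 4CB, at least 8.98-fold higher over the pooled embryos against the floor of 3 counts. It met the threshold of 50 UMIs through 2CB and 4CB alone, so the direction of this bound was set in advance.

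**Figure D3:**
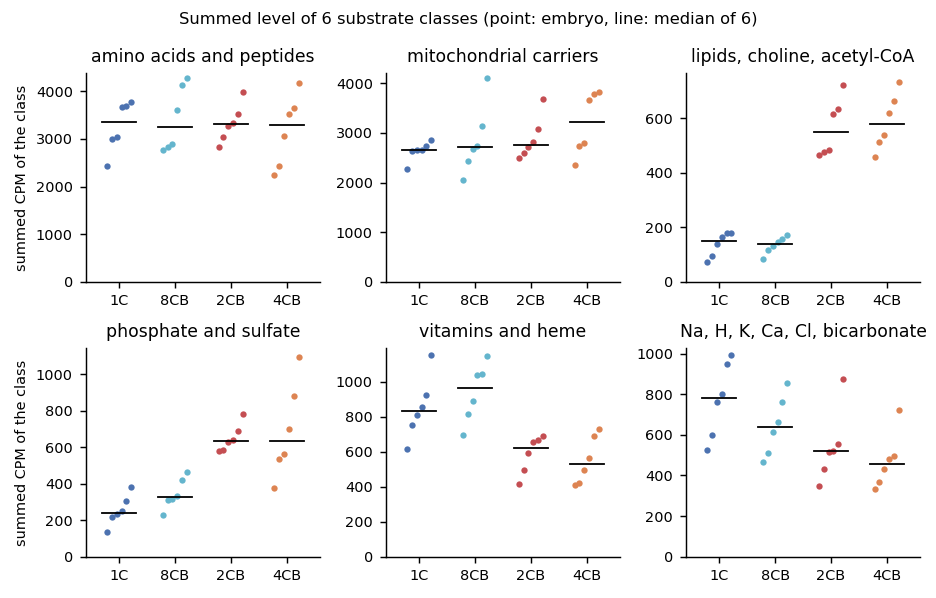
Summed CPM of 6 substrate classes (y axis, from 0) in every embryo of the 4 stages (x axis), with the median of 6 as a line. Carriers of lipids and choline lay at 460 CPM or more in 2CB and 4CB and at 179 CPM or less in 1C and 8CB, whereas the sums of amino acid carriers and mitochondrial carriers overlapped among all stages.

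Carriers of phosphate and sulfate numbered 4, of which 3 were tested and 2 were higher. Slc20a1, a sodium-coupled phosphate carrier, ran from 52.0 to 389 CPM in 1C and 8CB (median 131) and from 241 to 837 in 2CB and 4CB (median 421), for a log2 fold change of 1.62 (SE 0.28, adjusted p = 2.42e-05). Slc26a2, a sulfate carrier, had medians of 10.1 and 36.7 CPM (log2 fold change 2.00, SE 0.40, adjusted p = 0.000153). Slc34a2, another phosphate carrier, was not called at medians of 131 and 163 CPM (log2 fold change 0.21, SE 0.23).

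Of 17 carriers of sodium, protons, potassium, calcium and chloride or bicarbonate, only 5 were tested, with 1 higher, 3 lower and 1 not called. With no filter 4 were higher and 4 lower. The summed level was 771 ± 185 CPM for 1C, 645 ± 147 for 8CB, 542 ± 180 for 2CB and 473 ± 139 for 4CB (SD, n = 6 each), and the ranges of the stages overlapped. Slc12a2 (chromosome 18, 57878678 to 57946821), which brings sodium, potassium and chloride into the cell and is the highest of the class, ran from 175 to 535 CPM in 1C with a median of 383, from 127 to 333 in 8CB with a median of 163, from 9.29 to 42.1 in 2CB with a median of 32.8 and from 12.8 to 90.4 in 4CB with a median of 37.6. The pools did not overlap, and the log2 fold change was -2.94 (SE 0.28, adjusted p = 1.25e-09). Slc12a7, which exports potassium and chloride, was lower as well (log2 fold change -1.17, SE 0.36, adjusted p = 0.00799). Slc4a2, an exchanger of chloride for bicarbonate, was higher, with medians of 27.7 and 104 CPM (log2 fold change 1.17, SE 0.38, adjusted p = 0.0125). It overlaps Fastk on the opposite strand, which had 263 UMIs. Slc9a3, the apical exchanger NHE3, had 1 UMI in 1 embryo.

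Carriers of zinc, iron, copper and other metals numbered 20, and 11 were tested, with 6 higher, 2 lower and 3 not called. The higher calls of Slc30a4 and Slc39a2 were both lost with no filter and with the embryo number as a replicate block. They were also lost without any of 9 and 8 single embryos, respectively. Slc39a2 overlaps Mettl17 on the same strand, which had 339 UMIs. The highest, Slc39a4, which takes up zinc, was lower with medians of 178 against 141 CPM (log2 fold change -0.50, SE 0.25, adjusted p = 0.093), a call that was lost with DESeq2, with its size factors in edgeR, with no filter and without any of 13 single embryos (1C replicates 1, 4, 5 and 6, 2CB replicates 2, 3 and 4, 4CB replicates 2, 3 and 4, and 8CB replicates 2, 3 and 5). Slc11a2, the importer of ferrous iron, ran from 56.6 to 255 CPM in 1C and 8CB (median 139) and from 38.3 to 101 in 2CB and 4CB (median 62.6), lower by a log2 fold change of -1.17 (SE 0.22, adjusted p = 7.68e-05). Slc30a2 and Slc30a9, which move zinc into vesicles and out of mitochondria, were higher by log2 fold changes of 2.05 and 2.31 (SE 0.44 and 0.45, adjusted p = 0.000291 and 9.74e-05). Their medians were 6.93 and 4.44 CPM in 1C and 8CB and 34.8 and 38.0 CPM in 2CB and 4CB. Slc39a1, a zinc importer, was low in all stages, at medians of 5.80 and 3.54 CPM, and was not tested.

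Of 7 carriers of vitamins, heme and thyroid hormone, 4 were tested, 1 higher and 1 lower, and both of these had embryos of the pools that did not overlap. Slc5a6 (chromosome 5, 31036036 to 31048924), the carrier of biotin and pantothenate, ran from 313 to 776 CPM in 1C with a median of 477, from 353 to 853 in 8CB with a median of 507, from 71.2 to 159 in 2CB with a median of 105 and from 21.9 to 119 in 4CB with a median of 98.4. Its log2 fold change was -2.58 (SE 0.25, adjusted p = 2.26e-09), and it overlaps Atraid on the opposite strand, which had 93 UMIs. Slc52a3 (chromosome 2, 151996511 to 152009258), a riboflavin carrier, ran from 0 to 14.6 CPM in 1C with a median of 1.44, 2.80 to 17.1 in 8CB with a median of 6.31, 23.2 to 39.1 in 2CB with a median of 33.1 and 25.7 to 112 in 4CB with a median of 70.7, for a log2 fold change of 2.92 (SE 0.42, adjusted p = 1.85e-06). Its relative Slc52a2 was not called (0.50, SE 0.43). Slc46a1, the intestinal folate carrier and the highest of the class, kept medians of 290 and 354 CPM and was not called (log2 fold change 0.26, SE 0.19, adjusted p = 0.269).

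Carriers of nucleosides and nucleobases gave 4 tested members of 6, with 2 higher, 1 lower and 1 not called. Slc29a3 (chromosome 10, 60712072 to 60752794), the equilibrative carrier of lysosomes, ran from 114 to 372 CPM in 1C with a median of 278, from 102 to 409 in 8CB with a median of 289, from 33.8 to 62.2 in 2CB with a median of 36.3 and from 15.1 to 85.7 in 4CB with a median of 26.1. The highest 4CB embryo stayed under the lowest 8CB embryo, and the log2 fold change was -2.85 (SE 0.28, adjusted p = 2.58e-09). Its relative of the plasma membrane Slc29a1 was higher, from a median of 3.04 CPM (range 0 to 24.3) to 46.2 (13.2 to 70.2), by a log2 fold change of 2.63 (SE 0.45, adjusted p = 2.17e-05). Slc28a3, a concentrative carrier, was higher by 0.91 on the log2 scale (SE 0.39, adjusted p = 0.0544), with medians of 29.2 and 86.2 CPM, a call lost without 4CB replicate 2 and after thinning on the genes that passed at full depth. Slc29a2 was not called, at medians of 34.0 and 43.0 CPM.

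Family 35, whose known members carry nucleotide sugars into the Golgi and endoplasmic reticulum, gave 11 tested members of 20, with 5 higher, 2 lower and 4 not called. The higher calls of Slc35e1 and Slc35e2 were both lost without any 1 of 1C replicate 2, 1C replicate 6, 2CB replicate 2 and 4CB replicate 4, which left 3, and also after thinning on the genes that passed at full depth. That of Slc35e1 was also lost with no filter and without 8CB replicate 1. The highest was Slc35b1, which brings ATP into the endoplasmic reticulum, at medians of 126 and 163 CPM, and it was not called (log2 fold change 0.35, SE 0.20). Slc35c1, the Golgi carrier of GDP-fucose, ran from 0 to 30.4 CPM in 1C and 8CB (median 7.48) and from 27.9 to 98.5 in 2CB and 4CB (median 55.1), for a log2 fold change of 2.42 (SE 0.35, adjusted p = 1.96e-06). Slc35c2 was higher by 1.06 (SE 0.36, adjusted p = 0.0174), a call lost after thinning on the genes that passed at full depth. Slc35e4 and Slc35f2 were lower by log2 fold changes of -1.60 and -0.66 (SE 0.40 and 0.31, adjusted p = 0.00167 and 0.0759), and the call of Slc35f2 was lost with DESeq2's size factors in edgeR, with no filter, after thinning on the genes that passed at full depth and without any of 10 single embryos (1C replicates 1 and 3, 2CB replicates 1, 3, 4 and 6, 4CB replicates 1, 3 and 5, and 8CB replicate 2).

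None of the 5 members that carry organic cations and anions or load vesicles was tested at the filter, and without one 2 were higher and 0 lower. Slc22a5, the carnitine carrier, was at 0 in all 12 embryos of 1C and 8CB and present in all 12 of 2CB and 4CB, from 3.99 to 27.7 CPM, at least 14.9-fold higher over the pooled embryos against the floor of 3 counts. Its 101 UMIs all came from 2CB and 4CB, so it met the threshold of 50 UMIs through them alone and the direction of the bound was set in advance. Slc22a23, the highest of the class and an orphan, had medians of 0 and 20.6 CPM. The symbols of 4 members name no transporter. Slc9a3r1 (chromosome 11, 115163341 to 115181181), the scaffold NHERF1 that anchors apical membrane proteins, ran from 0 to 32.4 CPM in 1C with a median of 10.9, from 0 to 11.2 in 8CB with a median of 0, from 75.6 to 201 in 2CB with a median of 128 and from 65.9 to 156 in 4CB with a median of 134. The pools did not overlap (log2 fold change 4.20, SE 0.41, adjusted p = 2.41e-09). Its relative Slc9a3r2, or NHERF2, was higher by 2.63 (SE 0.62, adjusted p = 0.000919), with 0 to 121 CPM in 2CB and 4CB. Slc4a1ap, or kanadaptin, was lower, with a log2 fold change of -0.80 (SE 0.32, adjusted p = 0.0386), a call lost in both analyses of thinned counts, and overlaps Supt7l on the opposite strand, which had 465 UMIs.

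In 4 tested members (4.3%) the pools did not overlap and 2CB and 4CB were on top, as was so for 3.54% of all tested genes. In another 4 (4.3%) they were at the bottom, against 2.21% of all tested genes. The 4 on top (Slc15a2, Slc44a4, Slc52a3 and Slc9a3r1) met the filter in 2CB and 4CB alone. Those at the bottom (Slc12a2, Slc25a44, Slc5a6 and Slc29a3) met it in both pools, so the 2 sets are not alike in how they were selected. Slc22a5, which was not tested and met the threshold of 50 UMIs through 2CB and 4CB alone, also did not overlap.

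**Figure D4:**
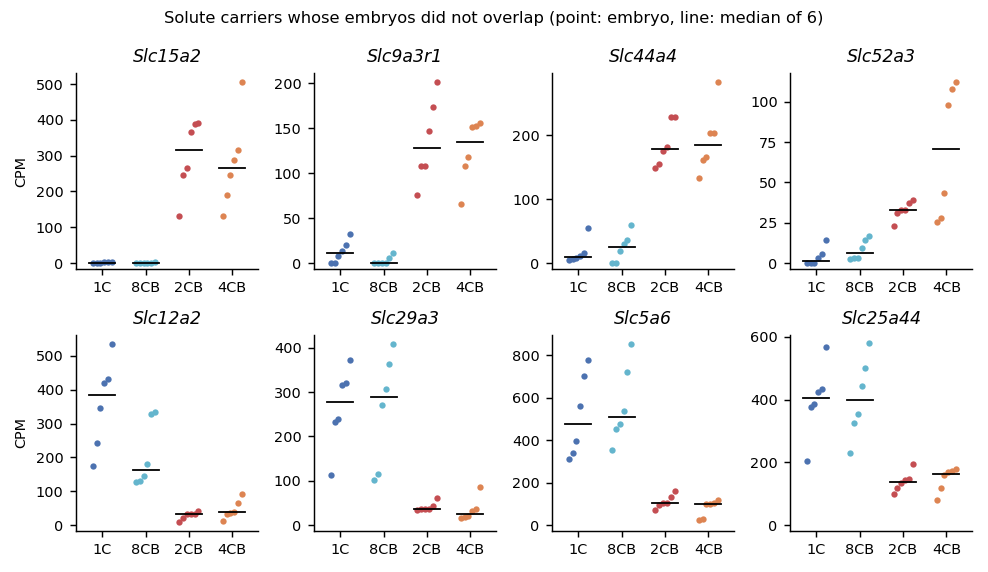
CPM of the 8 tested members whose embryos did not overlap between the pools (y axis, 1 panel a gene), by stage (x axis), with each embryo as a point and the median of 6 as a line. The upper row lay at 23.2 CPM or more in 2CB and 4CB, and the lower row at 102 CPM or more in 1C and 8CB. Members of the upper row met the filter in 2CB and 4CB alone, and those of the lower row in both pools.

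**Figure D5:**
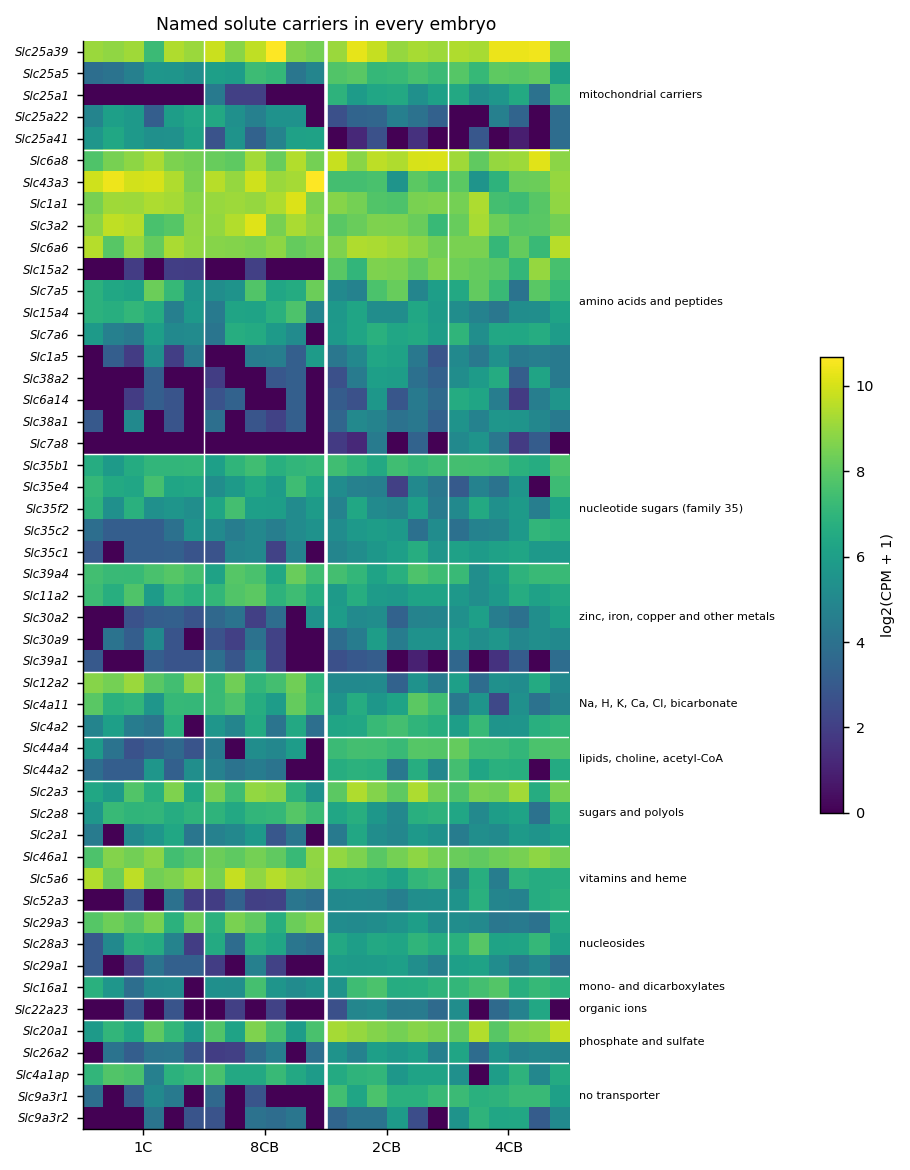
Log2(CPM + 1) of 50 named members (rows, by substrate class) in each of the 24 embryos (columns, by stage, 1C and 8CB at the left). At the left, Slc15a2 was at 3.04 CPM or less, Slc38a2 at 8.53 or less and Slc25a1 at 19.6 or less, and at the right Slc25a41 was at 13.2 CPM or less.

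Within a library pool, stages can be compared free of the pool. For 8CB against 1C, edgeR called 0 members, as it called 0% of all tested genes, and 11 members and 550 genes had an unadjusted p below 0.05. The lowest adjusted p was 0.254, for Slc25a5 at medians of 31.0 CPM in 1C and 61.8 in 8CB. For 4CB against 2CB, edgeR called 0 members, beside 0.0337% of all tested genes, with 4 members and 263 genes at an unadjusted p below 0.05. The median size of the log2 fold change over the tested members was 0.43 for 8CB against 1C and 0.27 for 4CB against 2CB, with median SE values of 0.54 and 0.47, beside a median size of 0.91 for the difference across the pools. The difference between the 2 within-pool differences was called for 0 members and 0% of all tested genes, with 8 members and 532 genes at an unadjusted p below 0.05.

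Slc4a11, a proton-conducting relative of the bicarbonate carriers, came closest within a pool. It ran from 43.2 to 254 CPM in 2CB with a median of 84.8 and from 3.99 to 44.7 in 4CB with a median of 22.2, beside 48.5 to 247 in 1C with a median of 133 and 59.0 to 281 in 8CB with a median of 146. Most 4CB embryos lay under every 2CB embryo, and 1 of 6 4CB embryos lay just above the lowest of 2CB. The log2 fold change of 4CB against 2CB was -2.24 (SE 0.50, edgeR adjusted p = 0.153), and DESeq2 called it at -2.21 (adjusted p = 0.0173). Leaving out 1 embryo moved the edgeR adjusted p between 0.0676 and 0.731. Its lower level in 2CB and 4CB together (log2 fold change -1.47, SE 0.34, adjusted p = 0.000655) averages stages with medians of 84.8 and 22.2 CPM.

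Solute carriers outside the Slc symbols were looked up from a list. Of 55 such genes 20 were tested, with 7 higher and 9 lower in 2CB and 4CB, and a median log2 fold change of -0.07. Beside this list and the partner proteins below stand 31.3% higher and 24% lower over all tested genes. The largest differences among those higher were Ucp2, a mitochondrial uncoupling protein relative, by 4.85 (SE 0.59), and Sfxn1, the mitochondrial serine carrier, by 1.63 (SE 0.39). The largest among those lower were Nipal1, of a magnesium carrier family (-3.08, SE 0.42), Spns1, a lysosomal lysolipid carrier (-2.40, SE 0.22), and Mfsd5, related to molybdate carriers (-2.37, SE 0.25), all as log2 fold changes. Partner proteins of solute carriers numbered 13, of which 7 were tested, 5 higher and 1 lower. Bsg, the chaperone that takes Slc16a1 to the membrane, was higher by 0.52 (SE 0.22), and Oxsr1, a kinase that activates Slc12a2, by 1.52 (SE 0.30). Atp1b1, a subunit of the sodium pump whose gradient drives many of these carriers, was higher by 2.48 (SE 0.54). Wnk1, the kinase above Oxsr1, was lower, with a log2 fold change of -0.62 (SE 0.17).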

How the data were processed

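The authors made CEL-Seq2 libraries of single embryos, aligned reads to GRCm38 with HISAT2 2.2.6, counted with HTSeq 0.6.1 and tested with DESeq2 1.10.1. The deposited table holds raw, whole-number UMI counts for each gene in each embryo, in the layout that featureCounts writes. The annotation release and strand setting are not given in the sources used here, so UMIs of overlapping genes may be shared or lost: 29 members overlap a gene on the same strand and 61 on the opposite strand. The 24 columns named Morula were not used. Symbols came from GENCODE M21 for 51719 of 52366 genes.

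Counts of all 24 embryos were normalized by TMM (factors 0.928 to 1.07), filtered with filterByExpr and fitted with 1 mean per stage in edgeR 4.0.16 (R 4.3.3), at a Benjamini-Hochberg adjusted p below 0.1 over 5940 genes. Log2 fold changes are those of edgeR, and their SE follows from the F statistic, and CPM are per total UMIs of an embryo. Whether the embryos of a stage came from separate fertilizations is not given in the sources used here, so p-values measure the spread between these embryos. A gene at 0 in 1C and 8CB was given a floor of 3 counts over those embryos, which covers counting error only. The tests were checked on simulated counts with known differences, a check that does not cover the division into pools or the filter. Between embryos of equal number from different stages (36 pairs), deviations from the stage means correlated by -0.0155 on average (-0.247 to 0.223), so embryos were not paired.

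Members, substrate classes and gene lists were chosen with earlier results of these data known. Classes follow the family, and Slc4a1ap and Slc7a6os were moved to the symbols without a transporter after the members were listed. Named are, in each class, the highest member and up to 2 called members each way with the largest log2 fold change at a mean of at least 20 CPM, and carriers known from the preimplantation embryo. Some named items are not reported here. Slc19a1 and Slc28a1, which mark the threshold, Slc6a13, Slc13a5, Slc37a2, Slc12a7, Slc16a6, Slc22a5, Slc51b, Slc34a2, Slc44a1, Slc27a4, Slc29a2, Slc30a4, Slc35e1, Slc35e2, Slc39a2, Slc52a2 and the unlisted mitochondrial carriers were named after their values were seen. The rule gave only UMI sums for members that did not pass the filter, and their CPM and unfiltered fold changes were added. Alternatives were DESeq2 1.42.0 and its size factors, other filters, thinning, an adjusted p below 0.05, a block for the embryo number, fits limited to the embryos compared, and leaving out each embryo. Thinning on the genes that passed at full depth was chosen after seeing the data.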

Additional observations from a re-analysis of the deposited data

Results flagged for a closer look

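In 149 sets of 6 embryos of 1 stage, over the named members, the highest or lowest embryo stood apart in 12, by a gap to the next embryo above Dixon's critical share of the range. For normally distributed values chance would flag about 1 in 20 such sets, but the distribution of these CPM was not checked, so the number of flags is not compared with that rate. No explanation was tested for any of them.

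The largest gap as a share of the range was that of Slc16a1, at 185 CPM in 8CB replicate 3, where the next embryo had 45.9. Among 1C embryos, Slc35c2 had 43.3 CPM in replicate 6 (next 14.6), Slc44a4 had 54.9 CPM in replicate 1 (next 16.0) and Slc7a5 had 307 CPM in replicate 4 (next 140). In 2CB, Slc29a3 had 62.2 CPM in replicate 5 (next 43.3), Slc6a14 had 49.5 CPM in replicate 3 (next 20.1), and Slc43a3 was lowest at 44.9 CPM in replicate 4 (next 178). In 4CB, Slc15a4 had 72.5 CPM (next 37.7) and Slc29a3 had 85.7 CPM (next 36.2), both in replicate 6. The same stage held Slc3a2 at 613 CPM in replicate 2 (next 336) and Slc6a8 at 1170 CPM in replicate 5 (next 569). Slc35f2 had 181 CPM in 8CB replicate 2 (next 75.7).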

How the results depend on the processing

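The counts of members called across the pools (65, of which 44 were higher and 21 lower) and among the 4 stages (54) stayed within 1.5 times under DESeq2 (48 higher, 20 lower), DESeq2's size factors in edgeR (47 and 19), at least 5 UMIs in 12 embryos (39 and 20) and an adjusted p below 0.05 (37 and 19). With no filter 69 were higher. Thinning to 70941 UMIs left 31 members to test and called 20, 9 higher and 11 lower, and 19 among the 4 stages. On the genes that passed at full depth, thinning kept 50 of the 65 calls and Slc25a15 alone changed sign (-0.03). Leaving out 1 embryo gave 61 to 67 members, 41 to 45 higher, 19 to 22 lower, and 49 to 55 among the 4 stages, and no call changed sign. For 8CB against 1C every alternative gave 0 members, also without 1 embryo (0 to 0). For 4CB against 2CB, DESeq2 and no filter called 1 member, Slc4a11, and leaving out 1 embryo gave 0 to 1, with 1 without 2CB replicate 1 or 3 (adjusted p = 0.0676 and 0.0836). The difference of the within-pool differences gave 0 to 0 without 1 embryo, 1 with DESeq2 (Slc4a11) and 2 with no filter (Slc4a11 and Slc6a4). The cause was not tested.

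With the embryo number as a replicate block 64 members were called, 43 higher and 21 lower, 52 among the 4 stages and 0 within the pools. The numbers did not pair the embryos.

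Of 6 named members that were tested and not called, 4 kept their sign under every setting that gave a value and 2 did not. Slc6a6 (-0.08) came to 0.08 after thinning, and to between -0.26 and 0.00 without 1 embryo, with 0.00 without 4CB replicate 3. Slc7a5 (0.03) came to -0.02 with at least 5 UMIs in 12 embryos and with no filter, and to between -0.31 and 0.24 without 1 embryo. Over all tested genes the median log2 fold change was 0.12, and 0.17 with DESeq2's size factors, 0.34 with no filter and -0.03 after thinning. The filter at 30.2 CPM left 71 members untested at this depth, and no difference across the pools can be separated from the library pools.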
